A study of Mus musculus with 8 samples.

Results

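Described here are 10 genes used by fibroblasts and other connective tissue cells, none of them a collagen, in mouse embryonic stem (ES) cell cultures. They are Cav1, Cd44, Axl, Inhba, Adamts5, Lox, S100a4, Pcdh18, Filip1l and Thy1, out of 14027 genes measured in the series. The 10 names were chosen by symbol, with the values of these same arrays known, among them low levels on 1 of the 8 arrays. Each gene is represented by its brightest probe set, the set of short probes whose mean log2 intensity was highest across the arrays. The deposited table holds 22 probe sets for the 10 genes, 17 of them called present on at least 2 arrays, and each gene kept at least 1. Because the values themselves led to the choice, the levels below are a description, and the fits across all genes are not independent evidence about these members.

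The cells were CJ7, a line of mouse ES cells, and the factor studied was Sall4, a zinc-finger transcription factor made as a long isoform, Sall4a, and a shorter one, Sall4b. The control lentivirus had no short hairpin RNA (shRNA), and that of depleted cells had an shRNA that targets Sall4a and Sall4b alike. The Sall4a-only and the Sall4b-only group received that shRNA and an shRNA-immune cDNA of the isoform named. All 4 groups had 2 arrays, 24 hours of infection with polybrene at 2.5 mcg/mL, puromycin selection at 2 mcg/mL in medium with LIF, and harvest 48 hours post infection. Control cells lacked the shRNA, so an effect of the shRNA as such and an effect of Sall4 loss cannot be told apart. The titles name the arrays biological replicates. How the cultures were kept apart and whether feeder cells were present is not in the labels, so the p-values cover the spread between these arrays and part of it may be technical.

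Fibroblasts build and remodel the matrix around cells. They secrete fibrous proteins and the enzymes that cross-link or cut them, and they hold on to the matrix through surface receptors such as Cd44, which binds hyaluronan. Pluripotent ES cells express little of this programme, while mesenchymal cells that arise from them on differentiation, and the embryonic fibroblasts often used as feeders, express much of it.

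The members lie on 8 chromosomes. In the mouse build GRCm38.p6, the RefSeq table places Cav1 at chr6:17306335-17341328, Cd44 at chr2:102811141-102901669, Axl at chr7:25756500-25788924 and Inhba at chr13:16004256-16031609. It places Adamts5 at chr16:85858157-85901125, Filip1l at chr16:57353277-57572804, S100a4 at chr3:90603770-90606045, Pcdh18 at chr3:49743291-49757383 and Thy1 at chr9:44043384-44048579. The pairs that share a chromosome, S100a4 with Pcdh18 and Adamts5 with Filip1l, lie 40.8 and 28.3 Mb apart, so none of the genes placed here are neighbours. Promoters, taken as the 250 bases before a start listed for the gene, were at hand for 7 members (9 starts, RefSeq, GRCm38.p6). In them, 5 motifs were searched on both strands. A listed start can lie inside the gene span given above, as those used for Inhba and Axl do. The 4 promoters that held a match to the TATA box (TATAAA) or to the TEAD motif (CATTCC) are shown because they are where the members differ in these letters, with the match in capitals, from 5′ to 3′ on the strand of the gene. S100a4 is at chr3:90603520-90603769 on the + strand, Inhba at chr13:16011601-16011850 on the + strand, Cav1 at chr6:17306085-17306334 on the + strand and Axl at chr7:25788734-25788983 on the - strand.
S100a4: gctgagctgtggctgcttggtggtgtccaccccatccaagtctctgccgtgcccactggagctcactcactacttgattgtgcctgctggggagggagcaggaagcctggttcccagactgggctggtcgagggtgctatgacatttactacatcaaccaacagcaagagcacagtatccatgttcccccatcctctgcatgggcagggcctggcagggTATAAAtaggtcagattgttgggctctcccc
Inhba: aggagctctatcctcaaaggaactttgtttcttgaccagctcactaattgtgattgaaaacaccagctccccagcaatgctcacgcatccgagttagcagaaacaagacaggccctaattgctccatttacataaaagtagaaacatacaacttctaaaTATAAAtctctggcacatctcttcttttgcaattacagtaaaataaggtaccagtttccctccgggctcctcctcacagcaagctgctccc
Cav1: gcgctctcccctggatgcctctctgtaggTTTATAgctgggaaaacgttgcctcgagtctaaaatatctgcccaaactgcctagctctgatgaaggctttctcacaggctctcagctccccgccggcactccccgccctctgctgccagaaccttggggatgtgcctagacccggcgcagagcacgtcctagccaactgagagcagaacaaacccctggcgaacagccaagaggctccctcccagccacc
Axl: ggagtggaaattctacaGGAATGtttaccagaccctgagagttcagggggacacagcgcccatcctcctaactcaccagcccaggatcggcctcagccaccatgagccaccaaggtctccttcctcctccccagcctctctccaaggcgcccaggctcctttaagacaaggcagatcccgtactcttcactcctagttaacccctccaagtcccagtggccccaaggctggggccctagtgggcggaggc
The S100a4 match began 31 bases before the start, where a TATA box usually sits, and those of Inhba and Cav1 began 91 and 221 bases before it, the latter on the opposite strand. The Axl match, also on the opposite strand, began 233 bases before the start. TATAAA stood in 12.4% of the 32851 promoters of the table, and CATTCC in 12.6%. An AP-1 motif (TGANTCA), held by 6.75% of all promoters, and the SMAD palindrome (GTCTAGAC), held by 0.167%, were in 0 of the 9. The short E-box (CANNTG), which can overlap other motifs and is in 66.2% of all promoters, was in 3 of the 9, both starts of Cav1 and 1 of Filip1l, and is not marked in capitals. A match is a description of letters and shows no factor at work.

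Values are deposited intensities after RMA (robust multi-array average), which makes the probe distributions of the arrays alike, and levels are given as log2 of them. Array medians ran from 141 to 149.8 in intensity, and 62.1% to 66.5% of probe sets were called present. Sall4 itself, on its brighter probe set, read 15077 and 13778 in control cells, 10489 and 10332 in depleted cells, 9140 and 9043 in Sall4a-only cells and 9567 and 9923 in Sall4b-only cells. A dimmer second probe set read 362 and 334 in control cells, 137 and 156 in depleted cells, 152 and 158 in Sall4a-only cells and 211 and 144 in Sall4b-only cells. Sall4 was lower in every group with the shRNA, the add-back groups included, and in depleted cells by 1.38-fold on the brighter and 2.37-fold on the dimmer probe set. The Sall4a-only arrays stood apart from each other: the correlation over genes was 0.968 between them, against 0.986 to 0.994 in the other pairs. They are therefore never averaged here, and each is given on its own with no test.

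On Sall4a-only replicate 1, 9 of the 10 members were lower than on Sall4a-only replicate 2 by over 1 log2, and the same 9 were at their lowest of all 8 arrays. The 7 of them called present on both arrays differed by -4.32 to -2.03, and for Inhba and Adamts5, absent on replicate 1, only a bound is given below. Over all genes, 6.18% were lower on replicate 1 by over 1 log2, 2.09% were higher by as much, and 14.6% were at their lowest there. These low values were among those that led to the choice of the members, so nothing is read from the counts. The median of the members relative to the mean of control cells was -3.40 log2 on Sall4a-only replicate 1 and 0.45 on replicate 2, where all genes had medians within 0.06 of 0. On depleted arrays that median was 0.85 and 0.63, and on Sall4b-only arrays -0.88 and -0.62.

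**Figure D1:**
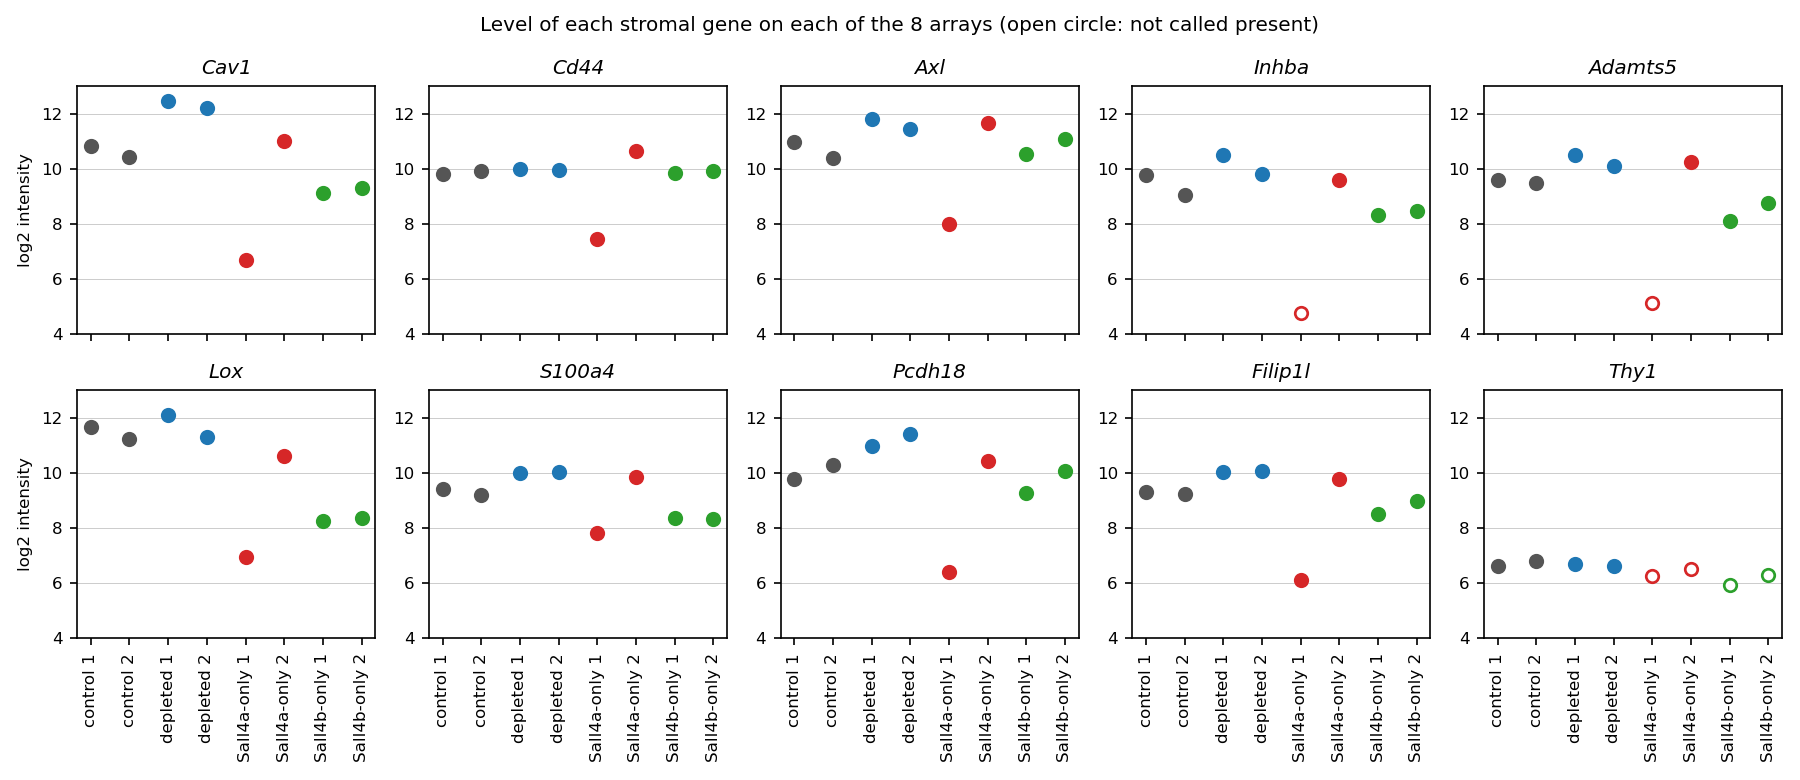
Level of each of the 10 members (log2 intensity, vertical axis, the same scale in every panel) on each of the 8 arrays (horizontal axis), 1 panel a gene and 1 point an array, coloured by group. Open circles mark arrays where the gene was not called present, and Sall4a-only replicate 1 is the lowest point in every panel except that of Thy1.

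Cav1 encodes caveolin-1, the coat protein of caveolae, small pits of the plasma membrane abundant in fibroblasts. It read 10.81 and 10.41 log2 in control cells, 12.47 and 12.19 in depleted cells, 6.68 and 10.997 on Sall4a-only replicates 1 and 2, and 9.12 and 9.30 in Sall4b-only cells. The groups other than Sall4a-only did not overlap, with depleted cells on top, control cells between and Sall4b-only cells below. Sall4a-only replicate 1 lay 15.3-fold under the control mean and 5.43-fold under the next lowest array, while replicate 2 lay 1.31-fold above the control mean.

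Among the surface receptors, Cd44, which binds hyaluronan, kept to a narrow band outside 1 group on its brightest probe set. Other Cd44 probe sets called present were lower in Sall4b-only than in control cells. The brightest read 9.80 and 9.91 in control cells, 9.97 and 9.94 in depleted cells, 7.46 and 10.66 in Sall4a-only cells, and 9.84 and 9.93 in Sall4b-only cells. The 6 arrays of the other groups spanned less than the distance of either Sall4a-only array from them: replicate 1 was the lowest of 8 and replicate 2 the highest of 8. Axl is a receptor tyrosine kinase of the TAM family, whose ligand is Gas6. It read 10.98 and 10.38 in control cells, 11.79 and 11.44 in depleted cells, 7.98 and 11.65 in Sall4a-only cells, and 10.54 and 11.08 in Sall4b-only cells. Control and Sall4b-only arrays of Axl overlapped, and depleted arrays lay above both. Sall4a-only replicate 1 was 6.51-fold under the control mean for Axl and 5.24-fold under it for Cd44.

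Pcdh18, a protocadherin and so a member of a family of cell adhesion proteins, read 9.79 and 10.29 in control cells, 10.97 and 11.40 in depleted cells, 6.39 and 10.43 in Sall4a-only cells, and 9.27 and 10.05 in Sall4b-only cells. Depleted arrays were the highest, control and Sall4b-only arrays overlapped, and Sall4a-only replicate 1 was 12.6-fold under the control mean. Thy1, a GPI-anchored surface glycoprotein of fibroblasts, T cells and neurons, was the exception among the members. It read 6.62 and 6.82 in control cells, 6.68 and 6.62 in depleted cells, 6.27 and 6.51 in Sall4a-only cells, and 5.92 and 6.28 in Sall4b-only cells. Thy1 was called present on the 4 control and depleted arrays, marginal on both Sall4a-only arrays and absent on both Sall4b-only arrays, and its lowest array was Sall4b-only replicate 1. Its replicate 1 minus replicate 2 was -0.24 log2 in the Sall4a-only group, where the 7 members called present on both arrays had -4.32 to -2.03.

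Of the secreted members, Inhba encodes the βA subunit that pairs with itself to form activin A, a ligand of the TGF-β family. It read 9.77 and 9.06 in control cells, 10.48 and 9.82 in depleted cells, 4.77 and 9.60 in Sall4a-only cells, and 8.33 and 8.47 in Sall4b-only cells. It was absent on Sall4a-only replicate 1 alone, at least 25.0-fold under the control mean, and the 3 other groups did not overlap. Adamts5, an aggrecanase that cuts the proteoglycans aggrecan and versican, read 9.60 and 9.50 in control cells, 10.50 and 10.09 in depleted cells, 5.13 and 10.24 in Sall4a-only cells, and 8.10 and 8.75 in Sall4b-only cells. On this brightest probe set it too was absent on Sall4a-only replicate 1 alone, at least 34.6-fold under Sall4a-only replicate 2, and its 3 other groups kept the order of Inhba without overlap. Dimmer Adamts5 probe sets called present gave smaller gaps between the Sall4a-only arrays, -3.85 and -1.34 log2, the latter from a probe set present on all 8 arrays. For both genes "at least" rests on the absent call, since the measured values lay above the lowest intensity called present, and the bound equalled the measured fold.

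Lox, lysyl oxidase, oxidises lysines of collagen and elastin so that the fibres cross-link. It read 11.66 and 11.23 in control cells, 12.09 and 11.30 in depleted cells, 6.95 and 10.62 in Sall4a-only cells, and 8.27 and 8.35 in Sall4b-only cells. Control and depleted arrays of Lox overlapped, Sall4b-only arrays lay close together and far below them, and Sall4a-only replicate 1 was a further 2.51-fold down from the lower of the Sall4b-only arrays. Sall4a-only replicate 2 was 1.76-fold under the control mean for Lox, where 8 other members were 1.14-fold to 1.96-fold above it and Thy1 was 1.16-fold under.

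Inside the cell, S100a4 is a calcium-binding protein also known as fibroblast-specific protein, although immune cells express it as well. It read 9.43 and 9.20 in control cells, 9.98 and 10.03 in depleted cells, 7.83 and 9.85 in Sall4a-only cells, and 8.35 and 8.33 in Sall4b-only cells. The 3 groups other than Sall4a-only did not overlap, and Sall4a-only replicate 1 lay 1.42-fold under the lower Sall4b-only array. Filip1l, named for its likeness to a filamin A interacting protein, read 9.32 and 9.22 in control cells, 10.05 and 10.07 in depleted cells, 6.13 and 9.79 in Sall4a-only cells, and 8.50 and 8.99 in Sall4b-only cells. Its order of groups was that of S100a4, and its level on Sall4a-only replicate 1 was 8.83-fold under the control mean, against 2.80-fold for S100a4.

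**Figure D2:**
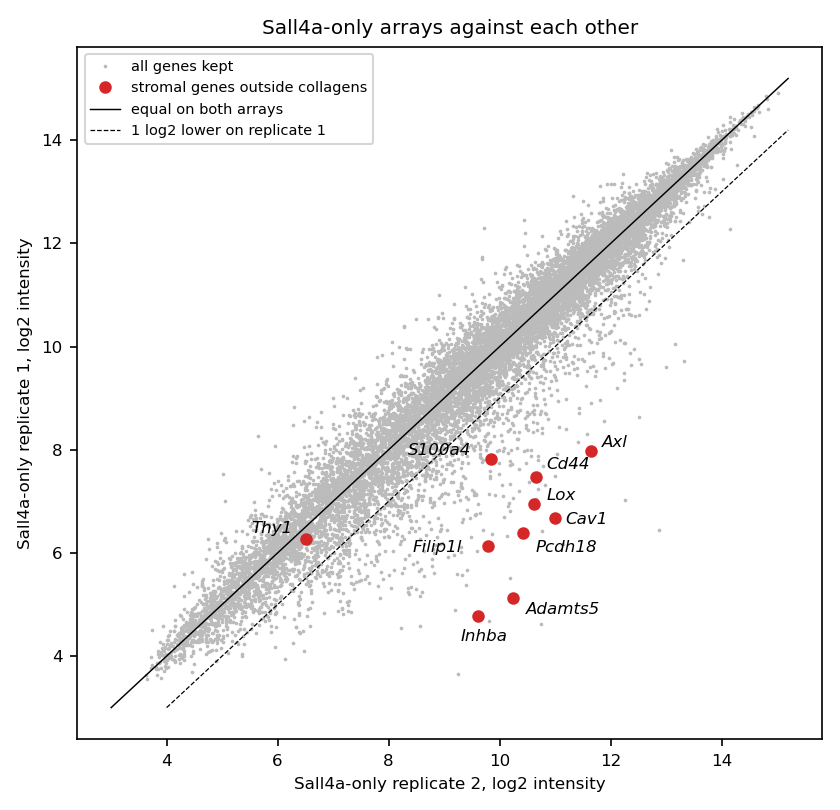
Log2 intensity on Sall4a-only replicate 1 (vertical axis) against replicate 2 (horizontal axis) for all 14027 genes (grey) and the 10 members (red), with a solid line at equal levels and a dashed line at 1 log2 lower on replicate 1. All members except Thy1 lie below the dashed line, and for Adamts5 and Inhba, called absent on replicate 1, the height is a measured value that gives only a bound on the gap.

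All 10 members were below both control arrays on Sall4a-only replicate 1, where 30.0% of genes were, and 7 were above both control arrays on replicate 2, where 38.8% of genes were. The 3 that were not are Inhba, Lox and Thy1. Second probe sets gave the same direction where they could be read: 7 further probe sets of members were called present on at least 2 arrays, and all 7 were at their lowest on Sall4a-only replicate 1. Their differences ran from -3.95 for a second Lox probe set to -1.34 for the dimmest Adamts5 probe set called present.

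Fibroblast markers moved with these values, and marker lists of other cell types differed in direction. The fibroblast list has 12 of its 13 genes on the array, and their summed intensity was 19001 and 14244 in control cells, 25360 and 23023 in depleted cells, 2225 and 17100 on Sall4a-only replicates 1 and 2, and 7711 and 10903 in Sall4b-only cells. Of those 12 genes, 9 were at their lowest on Sall4a-only replicate 1 and Lum was called present on no array. In control cells the sum leans on the bright collagen genes Col1a1 and Col1a2. Pdgfra did not follow the sum, at 7.91 and 7.90 log2 on Sall4a-only replicates 1 and 2. The 10 markers of pluripotent ES cells, all present on all 8 arrays, summed to 93652 on Sall4a-only replicate 1 and to between 68737 and 91853 on the others, and none was at its lowest there. The part of these markers in the members' values was not tested, and in bulk RNA fewer cells of a type and less RNA per cell cannot be told apart.

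The smooth muscle and myofibroblast list (6 of 6 on the array) summed to 33707 and 72813 on the Sall4a-only arrays, to 42903 and 49174 in control cells, and to between 49820 and 75019 in the depleted and Sall4b-only groups. Of 5 endothelium genes, Emcn and Tie1 were called present on no array while Tek and Esam were present on all 8, and the list summed to between 811 and 2016. Of 6 mesoderm genes on the array, Mixl1 and Tbx6 were present on none and Foxf1 on all 8, with sums of 939 to 1959. Primitive and parietal endoderm genes summed to 25201 on Sall4a-only replicate 1, the lowest of the 8 arrays, and to between 27325 and 43459 on the others. The 10 trophoblast genes, of which Elf5 was present on no array, summed to 61135 there, the highest, and to 56569 on replicate 2, against 44499 and 54589 in control cells and 31437 and 42570 in depleted cells. That sum leans on the keratins Krt8 and Krt18, at 14.29 and 14.63 log2 on Sall4a-only replicate 1. On that array Cdx2, Krt7, Krt8 and Krt18 were above both control arrays. Hand1, Plac1 and Gata3 were below both, and Eomes and Tfap2c lay between them. RNA quality moved little: the ratio of 3′ to 5′ probe sets was 1.40 for Gapdh and 1.45 for actin on Sall4a-only replicate 1, inside the ranges of 1.39 to 1.49 and 1.33 to 1.45 of all 8 arrays, while its 62.1% of probe sets present was the lowest.

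Depleted cells were set against control cells to describe these genes where the shRNA was present and Sall4 was partly lowered. Of the 10 means, 9 were higher in depleted cells, by 1.07-fold for Cd44 to 3.28-fold for Cav1, and the arrays of 8 members did not overlap between the groups, where 21.5% of all genes were higher and 19.6% lower without overlap. The members whose arrays overlapped were Lox and Thy1. The median difference of the members was 0.74 log2, beside 0.00 over all genes. None of the 10 passed the test, limma with Benjamini-Hochberg adjustment over all 14027 genes, and 0% of all genes did, with 0 members and 1111 genes at an unadjusted p below 0.05.

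Cav1 had the largest difference of the members, 10.61 ± 0.28 log2 in control and 12.33 ± 0.20 in depleted cells (SD, n = 2), a difference of 1.72 with a standard error (SE) of 1.24 and a limma adjusted p of 0.836. That SE comes mostly from the gap between the Sall4a-only arrays, which share the variance estimate: without those arrays the difference was the same, the SE 0.18 and the adjusted p 0.0991. Pcdh18 differed by 1.14, Axl by 0.94, Filip1l by 0.78, Adamts5 by 0.75, Inhba by 0.74 (0.39 without control replicate 2 and 0.41 without depleted replicate 1) and S100a4 by 0.69, with SEs of 0.59 to 1.47 over 8 arrays and 0.12 to 0.32 over 6. On 6 arrays their limma adjusted p-values ran from 0.159 for S100a4 to 0.433 for Inhba. Lox differed by 0.25, Cd44 by 0.10 and Thy1 by -0.07, each less than its SE over 8 arrays.

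Sall4b-only cells were set against control cells to see what differed with the shRNA and the Sall4b cDNA together. The lead belonged to Lox, 11.44 ± 0.30 log2 in control and 8.31 ± 0.05 in Sall4b-only cells (SD, n = 2), which is 8.78-fold lower. Its difference was -3.13 with an SE of 1.08 and a limma adjusted p of 0.280 over 8 arrays, and an SE of 0.29 and an adjusted p of 0.0295 without the Sall4a-only arrays. Cav1 was 2.64-fold lower (-1.40, limma adjusted p 0.634 over 8 arrays and 0.0485 over 6) and S100a4 was 1.96-fold lower (-0.97, limma adjusted p 0.479 and 0.0456). So 0 members passed over 8 arrays, where 0.00713% of genes passed, the single gene Mmp12, which was lower. On 6 arrays 3 members passed, all lower, where 0.492% of genes passed as lower and 0.371% as higher.

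The Sall4b-only arrays lay below both control arrays, without overlap, for 7 members, where 19.5% of all genes did and 32.2% lay above. Adamts5 was 2.18-fold lower (-1.12, SE 0.25 over 6 arrays, limma adjusted p 0.109), Inhba 2.02-fold lower (-1.01, SE 0.31, adjusted p 0.163) and Filip1l 1.44-fold lower (-0.53, SE 0.18, adjusted p 0.188). Thy1 was at least 1.53-fold lower (-0.61, SE 0.16, adjusted p 0.129), bounded because it was called absent on both Sall4b-only arrays. The 3 whose arrays overlapped with control were Pcdh18 at -0.39, Axl at 0.13 and Cd44 at 0.03. For Cd44 the probe sets disagreed: the brightest gave 0.03, and the 2 others called present gave -0.76 and -0.97. At an unadjusted p below 0.05 over 8 arrays stood 2 members, Lox and Thy1, and 2112 genes.

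The summed intensity of some marker lists of other cell types was lower in Sall4b-only than in control cells, namely trophoblast, macrophage and mesoderm. By gene, mesoderm did not share a direction, with 2 of 4 measured lower and 2 higher (median -0.09). Foxf1 and Hand2 differed by -1.45 and -0.41, and Mesp1 and Kdr by 0.26 and 0.23. Endothelium and endoderm sums overlapped between these groups, although by gene 9 of 12 endoderm genes were lower (median -0.31). Smooth muscle and myofibroblast sums were higher, 49174 and 42903 in control cells and 49820 and 62109 in Sall4b-only cells. Besides the fibroblast sums above, the trophoblast genes summed to 30682 and 31025 there, the lowest of the 8 arrays, and 8 of 9 measured were lower than in control cells (median -0.54). Hand1, a transcription factor of trophoblast giant cells and heart, fell by 2.75 and Krt7, a keratin, fell by 2.63 in the fit to 6 arrays (limma adjusted p 0.00891 and 0.0422, against 0.118 and 0.129 on 8). The macrophage genes summed to 3077 and 3950 in control cells, 1863 and 2163 in depleted cells, 3073 and 2357 on Sall4a-only replicates 1 and 2, and 1680 and 1696 in Sall4b-only cells. Of the 7 on the array, Adgre1, Tyrobp and Ptprc were present on none, while Cd68 was present on all 8 and Csf1r on 7. Cd68, a lysosomal protein, differed by -1.07 and Csf1r, a receptor of macrophages that trophoblast also expresses, by -2.38 (limma adjusted p 0.052 and 0.0828 on 6 arrays). The other macrophage genes measured, Fcer1g and Lyz2, hardly differed, at 0.08 and -0.02, so the lower sum rests on Cd68 and Csf1r. Pluripotent ES genes had a median difference of 0.31, with 9 of 10 higher. The part of these markers in the members' values was not tested.

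**Figure D3:**
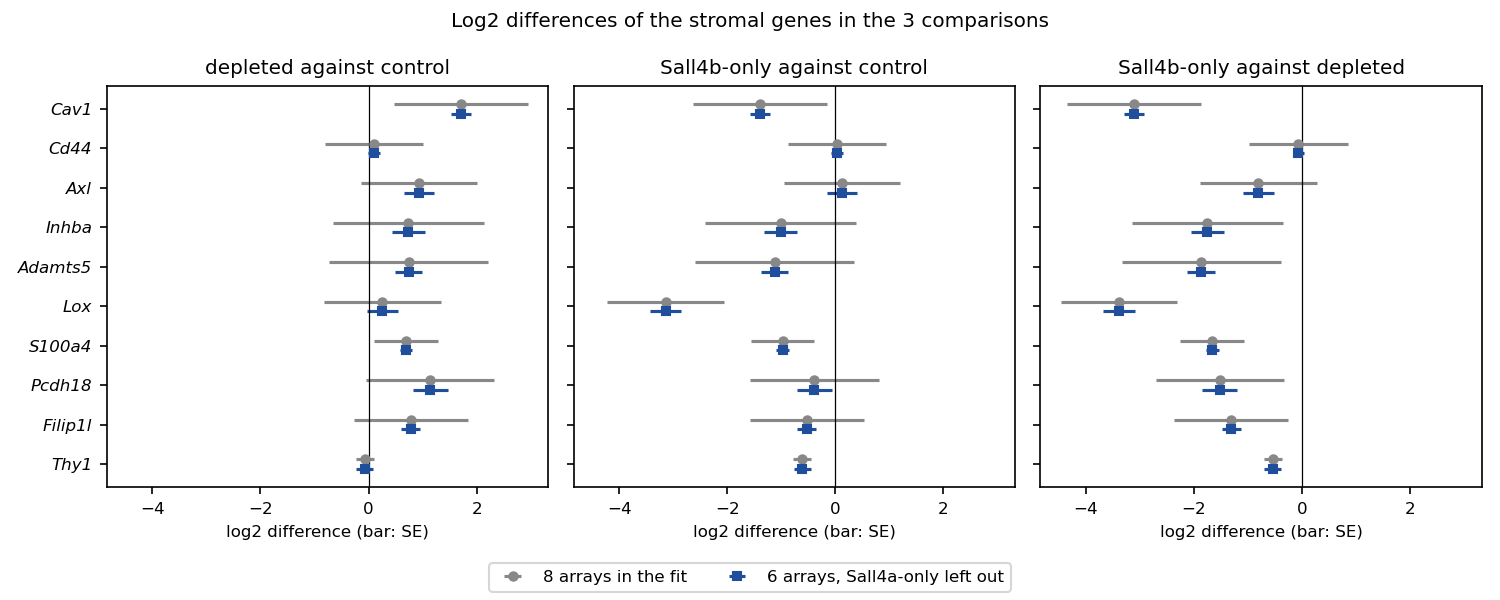
Log2 differences of the members in the 3 comparisons among control, depleted and Sall4b-only cells, with bars of 1 SE from the limma fits to 8 arrays and to the 6 arrays without Sall4a-only. The bars are shorter in the fit to 6 arrays, least so for Thy1, and there Cav1, Lox and S100a4 pass the threshold in both comparisons of Sall4b-only cells.

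Sall4b-only and depleted cells share the shRNA and differ in the Sall4b cDNA, and here every member was lower in Sall4b-only cells with no overlap between arrays, where 18.9% of all genes were and 37.8% were higher. The median difference was -1.60 log2, beside 0.06 over all genes. Lox was 10.5-fold lower (-3.39), Cav1 8.67-fold lower (-3.12) and S100a4 3.17-fold lower (-1.67). On the 6 arrays the limma adjusted p-values were 0.0209 for Lox, 0.00753 for Cav1 and 0.0123 for S100a4, and on 8 arrays they were 0.485, 0.557 and 0.523. Thus 0 members passed over 8 arrays, where 0% of genes did, and 3 passed over 6, where 0.385% of genes passed as lower and 0.0855% as higher.

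Adamts5 at 3.66-fold lower and Filip1l at 2.48-fold lower both had a limma adjusted p of 0.0633 on 6 arrays. Inhba was 3.37-fold lower with an adjusted p of 0.110, and Pcdh18 2.88-fold lower with an adjusted p of 0.154. Axl was 1.75-fold lower with an adjusted p of 0.313, and Thy1, absent in Sall4b-only cells, at least 1.46-fold lower with an adjusted p of 0.254. Cd44 differed by -0.07, the smallest of the members, and its other probe sets by -0.78 and -0.52. At an unadjusted p below 0.05 over 8 arrays stood Cav1, Lox, S100a4 and Thy1, and 1243 genes. The comparisons share arrays, so they are not independent of each other.

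Set in order by group mean, depleted cells were the highest of control, depleted and Sall4b-only cells for 9 members, where 22.5% of genes have that order, with Thy1 the exception. Control and Sall4b-only cells were not separated for Axl, Pcdh18 and, on its brightest probe set, Cd44. Within groups, the replicates of control cells differed by at most 0.71 log2, those of depleted cells by at most 0.79 and those of Sall4b-only cells by at most 0.78. Of the members, 9 were lower on Sall4b-only replicate 1 than on replicate 2, S100a4 being the exception, and 7 were higher on control replicate 1 than on replicate 2. Over all genes, 9.8% were at their lowest of 8 arrays on Sall4b-only replicate 1 and 4.7% on replicate 2. For control replicates 1 and 2 these shares were 14.5% and 21.7%. The share of all genes with the members' order was not counted, so nothing is read from the counts.

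The members followed a common profile to different degrees. Across the 8 arrays, Pearson's r of a member with the mean of the other members was 0.993 for Adamts5, 0.988 for Filip1l, 0.982 for Inhba and 0.970 for Cav1, and 0.601 for Thy1. With Sall4a-only replicate 1 left out, Adamts5 stood at 0.978, S100a4 at 0.972 and Filip1l at 0.968, while Axl stood at 0.692 and Cd44 at 0.277. Thus, on its brightest probe set, the likeness of Cd44 to the rest, 0.856 over 8 arrays, rests on that array. Other Cd44 probe sets called present differed by -0.76 and -0.97 in Sall4b-only against control cells, and no coefficient was taken for them. The coefficients given describe arrays of 4 groups that share their treatments, and no p is attached.

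Outside the members, the 10 genes with the profile most like their mean over the 8 arrays were Cdh2, Col1a2, Cpe, Col12a1, Timp1, Col1a1, Adam12, Hs6st2, Sh3kbp1 and Emx2, with r of 0.980 to 0.996. Cdh2, N-cadherin, led with 0.996 over 8 arrays and 0.986 over the 7 without Sall4a-only replicate 1, and its difference between the Sall4a-only arrays was -1.46. Col1a2 and Col1a1, the chains of type I collagen, differed by -5.25 and -3.11, and Col12a1, a fibril-associated collagen, by -3.80. Timp1, an inhibitor of matrix metalloproteinases, differed by -1.29, and Adam12, a metalloprotease of mesenchymal cells, by -3.29.

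Collagens and other stromal genes are the lists closest to the members by function, and no ranking of lists by profile was made. Of 8 collagens measured, 7 were lower on Sall4a-only replicate 1 than on replicate 2, with a median of -2.39 log2 beside -3.68 for the members and 0.01 over all genes. All 8 were higher in depleted than in control cells (median 0.62) and 5 were lower in Sall4b-only than in control cells (median -0.59), with none past the threshold over 8 arrays. Col3a1, a chain of fibrillar collagen, fell by 3.19 in Sall4b-only against control cells in the fit without the Sall4a-only arrays (limma adjusted p 0.0267), while Col6a1 had a difference of 1.49 (adjusted p 0.0518).

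Of 38 other stromal and mesenchymal genes measured, 34 were lower on Sall4a-only replicate 1 than on replicate 2 (median -1.09) and 25 were at their lowest on replicate 1. Postn, a matrix protein of fibroblasts that was absent on replicate 1, was at least 19.7-fold lower there, and Thbs2, a thrombospondin, differed by -3.38 and Mmp2, a gelatinase, by -2.93. In depleted against control cells 32 were higher (median 0.27), and in Sall4b-only against control cells 24 were lower (median -0.10, where the members had -0.79), none past the threshold on 8 or 6 arrays. Tgfbi, Gas1 and Anxa1 had the smallest p there, with differences of -1.59, -1.04 and -0.85. In Sall4b-only against depleted cells 31 of the 38 were lower (median -0.44), 28 of them without overlap, where all 10 members were. Igfbp7, a secreted binding protein of insulin-like growth factors, fell by 2.35 there in the fit to 6 arrays (limma adjusted p 0.0434, against 0.322 on 8). The smooth muscle list departed in direction from the members only in Sall4b-only against control cells. All 6 were lower on Sall4a-only replicate 1 than on replicate 2 (median -1.32) and higher in depleted than in control cells (median 0.94). All 6 were also lower in Sall4b-only than in depleted cells (median -0.38). Against control cells, 5 were higher in the Sall4b-only group (median 0.22), among them Cnn1, a calponin, at 1.74 (limma adjusted p 0.0485 on 6 arrays).

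**Figure D4:**
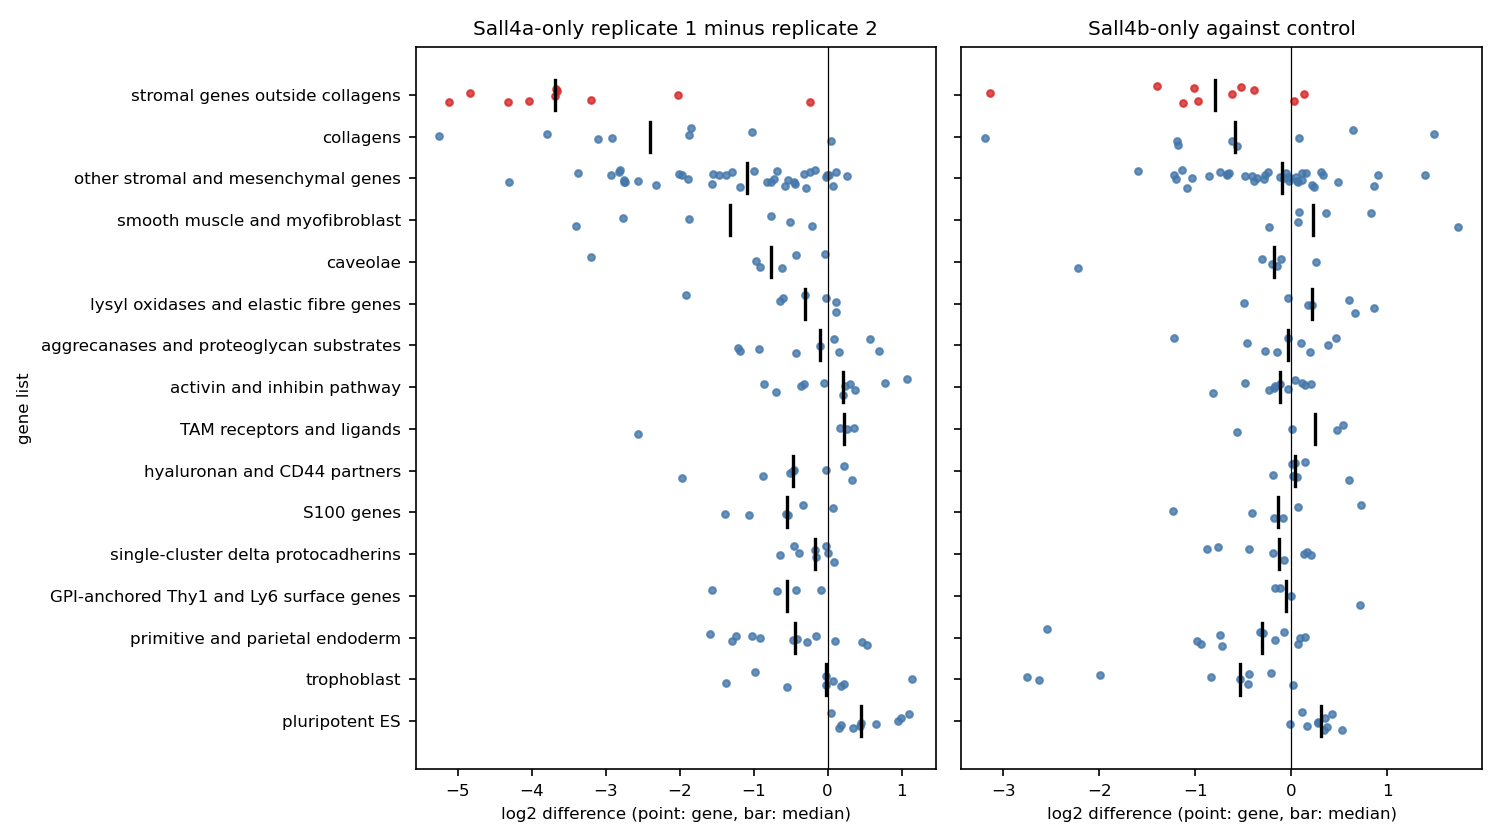
Log2 differences of the genes of each list, 1 point a gene and a bar at the median of the list, between the Sall4a-only arrays (left, replicate 1 minus replicate 2) and in Sall4b-only against control cells (right). The members, in red, have medians of -3.68 and -0.79, the collagens of -2.39 and -0.59, and the pluripotent ES markers of 0.45 and 0.31.

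The partners of each member in its pathway were taken from lists by function, the member itself left out, and no gene of these lists passed over 8 arrays. Of 6 caveola genes, all were lower on Sall4a-only replicate 1 than on replicate 2 (median -0.76): Cav2, which forms complexes with caveolin-1, differed by -3.20 and Cavin1 by -0.97. Cavin3, a coat protein of caveolae, was called absent on both Sall4b-only arrays and on Sall4a-only replicate 1, and was at least 4.66-fold lower in Sall4b-only than in control cells (limma adjusted p 0.0406 on 6 arrays and 0.125 on 8). Its levels were 8.67 and 8.47 in control cells, 8.67 and 8.02 in depleted cells, 6.30 and 7.21 in Sall4a-only cells, and 6.19 and 6.51 in Sall4b-only cells. Both Sall4a-only arrays lay below all control and depleted arrays for Cavin3, whereas replicate 2 was not below them for Cav1.

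Partners of the receptors differed less. Of 8 genes of hyaluronan and Cd44, 6 were lower on Sall4a-only replicate 1 (median -0.46), the widest gap being that of Has2, a hyaluronan synthase, at -1.96, and in Sall4b-only against control cells the median was 0.03. Of 4 TAM genes other than Axl, Gas6 was the 1 that was lower on Sall4a-only replicate 1, at -2.56. The other TAM receptors, Tyro3 and Mertk, and the ligand Pros1 differed by 0.17, 0.36 and 0.27. Of 8 delta protocadherins other than Pcdh18, 6 were lower on that array (median -0.17), and none by over 1 log2. Of 4 GPI-anchored surface genes, all were lower there (median -0.55), with Nt5e, the enzyme CD73, at -1.57.

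Partners of the secreted members did not share a direction. Of 11 activin and inhibin pathway genes, 5 were lower on Sall4a-only replicate 1 (median 0.21), and Inhbb, the βB subunit, was higher there by 1.08. Follistatin (Fst), which binds and blocks activin, differed by -0.82 in Sall4b-only against control cells (limma adjusted p 0.276 on 8 arrays and 0.207 on 6). Of 9 aggrecanase and proteoglycan genes, 5 were lower (median -0.10), with Adamts1 and Adamts9, related proteases, at -1.21 and -1.18. Adamts1 also differed by -1.22 in Sall4b-only against control cells (limma adjusted p 0.251 on 8 arrays and 0.054 on 6).

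Of 7 lysyl oxidase and elastic fibre genes other than Lox, 5 were lower on Sall4a-only replicate 1 (median -0.31), led by Loxl1 at -1.92, but against control cells 5 were higher in the Sall4b-only group (median 0.21). Loxl1 had a difference of 0.60 there and Loxl3 of 0.66, where Lox had -3.13. Of 6 S100 genes other than S100a4, 5 were lower on Sall4a-only replicate 1 (median -0.55), with S100a3 at -1.38 and S100a16, absent there, at least 2.09-fold lower. In Sall4b-only against control cells S100a3 differed by -1.23 and S100a16 by 0.73, with limma adjusted p-values of 0.120 and 0.0896 on 6 arrays. Both measured filamin genes, Flna and Flnc, were lower on Sall4a-only replicate 1, with differences of -1.11 and -0.09.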

How the data were processed

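The authors deposited a linear intensity for each probe set on each array. RMA is named, with no version, in the submitters' processing notes, and the 3 deposited tables differed in 0 values. The method that called probe sets present, marginal or absent is one the sources used here do not give. Intensities ran from 9.71 to 34525. Precision is limited by the small number of arrays, 2 in each group.

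Of 45101 probe sets, 64 were array controls. GEO's platform annotation gave 1 symbol for 34945 of the others, several for 932 and none for 9160, which are unnamed here. Probe sets present on at least 2 of 8 arrays were kept, with the brightest standing for each of 14027 genes. Log2 was taken with no further normalization or pseudocount.

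A model of 4 group means was fitted to 8 arrays with limma 3.58.1 in R 4.3.3 (statmod 1.5.0), with 4 residual degrees of freedom, or 6.20 after moderation, and adjusted by Benjamini-Hochberg at 0.05. A fit without the Sall4a-only arrays stands beside it. Folds against a group with no present call are bounds. The alternatives were a floor at the lowest intensity called present, a trended and robust prior, quantile normalization, no filter, the mean of a gene's probe sets, the groups compared alone, each array left out and a replicate block, and their effect is in the closing section.

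The members and gene lists were chosen with earlier results of these data known. Besides the members and Sall4, the genes named are the 10 most like the members' mean profile. Of each list, those past the threshold on 8 or 6 arrays are named, and otherwise some of the 3 that differ most between the Sall4a-only arrays or have the smallest p in Sall4b-only against control cells. Others were chosen after their values were seen (Mertk, Tek, Esam and, where they fall outside this rule, Loxl3, Cavin1 and Col6a1). Same-numbered replicates did not deviate together in every pair of groups (r over genes from -0.12 to 0.57), so the numbers were not taken as pairs.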

Additional observations from a re-analysis of the deposited data

How the results depend on the processing

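The counts of genes that passed depended on how the spread was estimated. In depleted against control cells 0 genes passed, and 2 did with a trended and robust prior (Pkm and P2ry10b). In Sall4b-only against control cells 1 gene passed, 7 did after quantile normalization, 17 with the trended and robust prior, 14 in a fit of the groups compared alone and 121 without both Sall4a-only arrays. In Sall4b-only against depleted cells 0 genes passed, 7 with the trended and robust prior, 61 in the fit of the groups compared alone and 66 without both Sall4a-only arrays. Leaving out each array in turn gave 0 to 1, 0 to 121 and 0 to 66 genes in the 3 comparisons, the 1 being Tnfrsf11b without depleted replicate 2. The upper counts of 121 and 66 come from leaving out either Sall4a-only array, since the lone array then adds nothing to the estimate of spread. Of the members, 0 passed in each comparison. In the fit of the groups compared alone 1 passed for Sall4b-only against control, Lox, and 3 against depleted cells, and without both Sall4a-only arrays 3 and 3. Leaving out each array gave 0 to 0, 0 to 3 and 0 to 3. With the replicate number as a block, 2 genes passed for Sall4b-only against control (Mmp12 and Lce1d), 0 in the others and 0 members. With the numbers of Sall4b-only crossed against depleted, an alternative chosen after seeing the data, 0 genes passed. The call of Mmp12 was lost without any 1 control, depleted or Sall4b-only array. Of 490 member values under the alternatives, 459 kept direction and side of the threshold, 22 newly passed and 9 changed sign. With the mean of all its probe sets, Cd44 gave -0.11 in depleted and -0.57 in Sall4b-only against control cells. With each array left out, Lox in depleted against control cells ran from -0.14 to 0.65 and Thy1 from -0.17 to 0.032. In Sall4b-only against control cells, Cd44 ran from -0.026 to 0.088, Axl from -0.17 to 0.43 and Pcdh18 from -0.78 to 0.0054. Values that kept their sign but moved by over 1.5 times were those of Inhba, from 0.39 to 1.09 in depleted and from -1.37 to -0.66 in Sall4b-only against control cells, of Filip1l, from -0.77 to -0.28 in the latter, of Cd44, from 0.046 to 0.16 in depleted against control and from -0.12 to -0.026 in Sall4b-only against depleted cells, and of Axl, from -1.08 to -0.54 in that last comparison. The cause of these sign changes was not tested.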
